A study of Rattus norvegicus with 6 samples.

Results

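The dystrophin glycoprotein complex is a group of proteins that ties the actin cytoskeleton of a muscle cell to the extracellular matrix. Dystrophin, or its paralog utrophin, binds actin inside the cell and dystroglycan at the membrane, and dystroglycan binds laminin outside the cell. The sarcoglycans and sarcospan form a second part of the complex in the membrane and hold dystroglycan in place, and the syntrophins bring signaling proteins to dystrophin. The complex is best known from skeletal muscle, where its loss causes muscular dystrophies, but smooth muscle of the vessel wall also carries it, with ε-sarcoglycan largely in the place of α-sarcoglycan. The 9 members described here were taken by symbol from the table of 14475 genes. They were Dmd, Utrn, Dag1, Sgca, Sgcb, Sgcd, Sgce, Sntb2 and Sspn. Genes without an entry in the table were skipped in making this list, so it does not show how much of the complex was detected.

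The libraries were made from VSM cells grown out of the soleus feed artery (SFA), a small artery that supplies the soleus muscle, of male rats of an inbred Fischer strain. The young group held 3 cultures from rats aged 4 months and the old group 3 cultures from rats aged 24 months (n = 3 rats per group, 1 library per culture). Both groups were grown in the same medium with fetal bovine serum, and no stretch or pressure treatment is named for the cells that were sequenced. The cells were cultured rather than taken directly from the artery, and the passage number is not given in the sources used here. Total counts on genes ranged from 44235674 to 59700887 per library, more than the number of reads per sample stated in the protocol, and whether both mates of a pair were counted is not stated. All 20 genes of a list of contractile smooth muscle genes were in the table. A place in it takes 10 counts in 3 libraries, which does not show a gene in both groups. Acta2 and Myh11 were counted in every library, with at least 58515 and 3875 counts. Most genes of this list were lower in old, as given below. Markers of fibroblasts were present as well, and are given below beside the results.

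Which genes of the complex differed between young and old VSM cells was tested with edgeR on all 14475 genes, with young as the reference. Calls required both an adjusted p below 0.05 and a log2 fold change of 1 or more in size. By the quasi-likelihood test of edgeR, 0 of the 9 members were called, where 0.00691% of all genes (1 gene) were. The fitted log2 fold changes were between -1.34 and -0.66 for Dmd, Sgca and Dag1, between 0.70 and 0.73 for Sgcb, Sgcd and Sspn, and between -0.001 and 0.13 for Utrn, Sgce and Sntb2. With the unadjusted p below 0.05, edgeR had 2 members lower in old (Dmd and Dag1), where 11.5% of all genes met this, and 1 member higher in old (Sgcb), where 11.2% of all genes did. The DESeq2 Wald test also called 0 of the 9, where it called 5.68% of the genes it tested, and limma-voom called 0. The 3 old libraries all lay below the 3 young libraries for 1 member, Dag1 (14.7% of all genes), and all above them for 1 member, Sgcb (14.5% of all genes). For 9 genes, such counts are near these shares over all genes, so the counts alone are not a result about the complex. Their median log2 fold change was 0.08, compared with 0.02 over all genes.

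The sequences before the start sites are shown for Dmd and its paralog Utrn, whose ratio is compared below, and for Sgca and Sspn, whose values rest on single libraries. RefSeq start sites of the rat assembly GRCr8 were matched by symbol for 8 of the 9 members (all but Dag1), whereas the counts were made on another assembly, so these positions were used for sequence only. For Dmd, 3 start sites were listed, of which the second lies 2072927 bases after the first and the third only 31 bases further. A start that far inside the gene gives a shorter form of dystrophin, and the gene counts add all forms together. The windows were searched on both strands for the CArG box, which is bound by serum response factor, for the E-box CANNTG, for the M-CAT motif CATTCC and for the GC box GGGCGG. Each line gives 250 bases 5′ of a start, on the strand of the gene, with every match to one of the 4 motifs in capitals.
Dmd, first start, chrX:51205836-51206085, plus strand: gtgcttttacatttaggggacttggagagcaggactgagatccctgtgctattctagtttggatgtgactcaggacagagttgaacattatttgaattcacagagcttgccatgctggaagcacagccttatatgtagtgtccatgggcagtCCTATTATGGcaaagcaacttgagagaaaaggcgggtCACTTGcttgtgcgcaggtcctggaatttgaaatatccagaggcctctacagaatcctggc
Dmd, second start, chrX:53278763-53279012, plus strand: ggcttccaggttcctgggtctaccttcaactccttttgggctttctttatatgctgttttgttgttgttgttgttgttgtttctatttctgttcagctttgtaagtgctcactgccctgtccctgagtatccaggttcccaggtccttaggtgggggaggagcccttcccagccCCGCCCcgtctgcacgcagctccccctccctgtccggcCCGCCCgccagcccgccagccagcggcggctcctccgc
Utrn, chr1:9044488-9044737, minus strand: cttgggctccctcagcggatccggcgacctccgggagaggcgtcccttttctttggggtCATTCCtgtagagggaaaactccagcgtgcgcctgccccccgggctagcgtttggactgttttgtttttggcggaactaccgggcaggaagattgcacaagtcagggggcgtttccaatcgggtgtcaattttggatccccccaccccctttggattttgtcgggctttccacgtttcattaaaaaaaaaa
Sgca, chr10:80416076-80416325, minus strand: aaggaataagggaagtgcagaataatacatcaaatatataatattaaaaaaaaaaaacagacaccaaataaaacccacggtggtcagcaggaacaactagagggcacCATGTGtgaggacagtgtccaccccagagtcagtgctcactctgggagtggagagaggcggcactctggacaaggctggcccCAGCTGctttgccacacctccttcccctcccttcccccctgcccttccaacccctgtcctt
Sspn, chr4:180627632-180627881, plus strand: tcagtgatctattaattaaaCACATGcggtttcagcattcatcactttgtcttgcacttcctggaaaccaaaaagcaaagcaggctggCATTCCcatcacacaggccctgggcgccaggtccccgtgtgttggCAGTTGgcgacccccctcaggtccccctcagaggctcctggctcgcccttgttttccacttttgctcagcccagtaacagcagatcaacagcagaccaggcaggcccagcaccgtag
The first start of Dmd had a CArG box, read as CCTATTATGG, beginning 98 bases before the start, and an E-box beginning 61 bases before it. In windows that also took 50 bases after the start, the CArG box was found in 1.64% of all 33469 listed promoters, in 1 of the 8 members (Dmd) and in 2 of 15 matched contractile genes (Ldb3 and Srf). The second start of Dmd held GC boxes and no CArG box. GC boxes were found in 33.1% of all promoters and in 3 of the 8 members (Dmd, Sgce and Sntb2). Utrn held an M-CAT motif beginning 191 bases before its start, as 14.2% of all promoters and 2 of the 8 members do. E-boxes were in 72.1% of all promoters and in 4 of the 8 members, and Sgca had E-boxes beginning 143 and 61 bases before its start. The windows of Sgcb held 0 of the 4 motifs. A match of this kind describes the letters and does not show that a factor binds there.

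**Figure D1:**
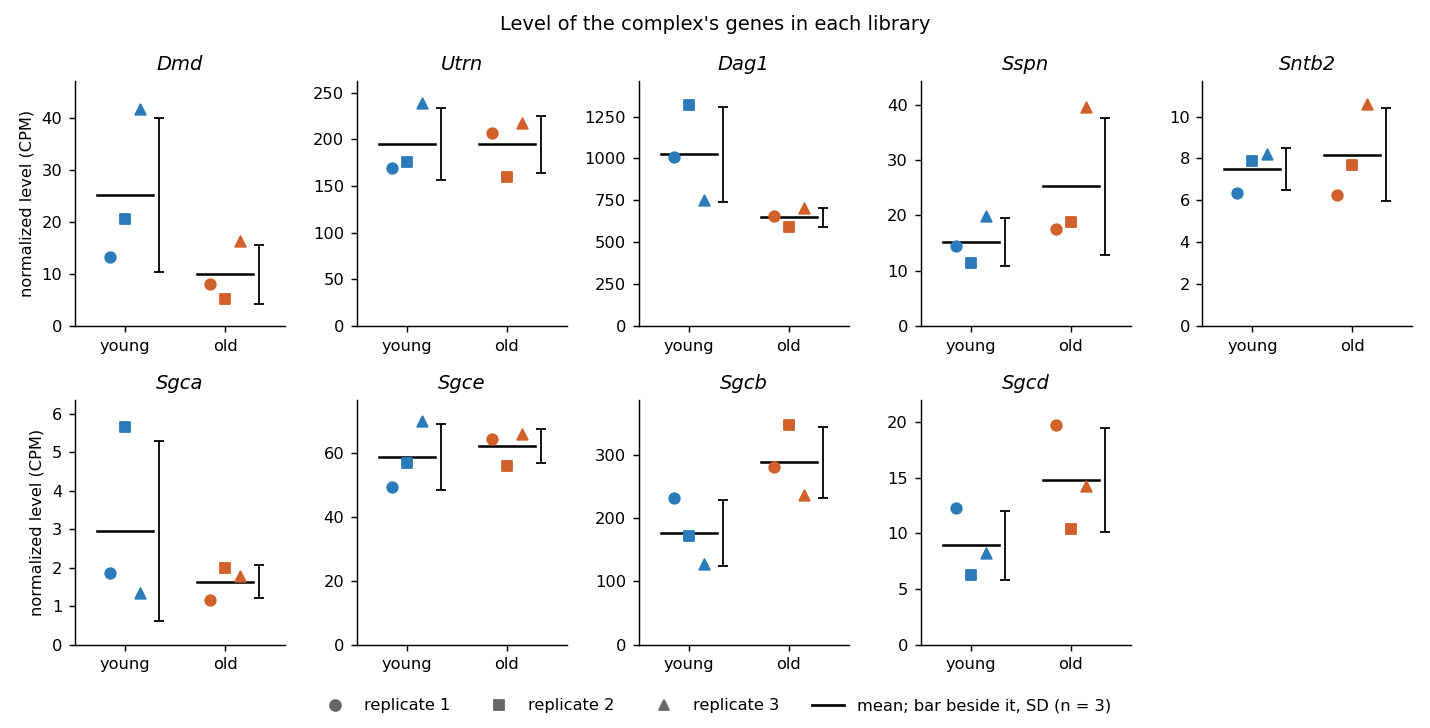
Normalized level (CPM, linear axis from 0) of the 9 members in each library, with young on the left and old on the right of each panel. Lines are means and the bars beside them SD (n = 3), and the old libraries lie apart from the young libraries for Dag1 and Sgcb.

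Dmd (ENSRNOG00000046366) encodes dystrophin, the actin-binding protein after which the complex is named. Its level was 13.3, 20.5 and 41.7 CPM (the count divided by the normalized library size and brought to a common scale) in young replicates 1, 2 and 3 and 8.10, 5.29 and 16.4 CPM in old replicates 1, 2 and 3. The means were 25.2 ± 14.8 CPM in young and 9.92 ± 5.76 CPM in old (SD, n = 3 each). Old replicate 3 lay above young replicate 1, so the groups overlapped, and young replicate 3 was the highest library. On the log2 scale the fold change was -1.34 (SE, the standard error, 0.55, edgeR adjusted p = 0.219), the most negative among the members. DESeq2 gave an adjusted p of 0.0776 for Dmd, which also missed its threshold. The edgeR fold change of Dmd was -0.77 without young replicate 3 and -1.91 without old replicate 3, so single libraries moved its size in opposite directions. The unadjusted p of Dmd, 0.0485 with all libraries, was 0.173 without young replicate 3 and was also over 0.05 without young replicate 2 and without either of old replicates 1 and 2. A smaller amount of Dmd RNA per cell and fewer cells that express it cannot be told apart in bulk libraries, which holds for each gene below.

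Utrn (ENSRNOG00000011058) encodes utrophin, which is built like dystrophin and takes its place in many tissues. It had 170, 176 and 239 CPM in the young libraries and 207, 160 and 217 CPM in the old libraries. The groups covered almost the same range, with a log2 fold change of -0.001 (SE 0.18, edgeR adjusted p = 0.998). The 95% interval of the difference from limma-voom ran from -0.44 to 0.44 on the log2 scale, which leaves room for changes of that size in either direction. The sign of this value turned with the scaling and with single libraries left out, so no direction is given.

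The ratio of Utrn to Dmd within a library does not depend on the library size. Since the transcripts differ in length, the ratio itself is not a ratio of molecules, and only its change between groups was read. On the log2 scale it was 3.67, 3.10 and 2.52 in the young libraries and 4.67, 4.92 and 3.73 in the old libraries. Each old library had a higher ratio than each young library, with old replicate 3 only just above young replicate 1. The mean log2 ratio was 3.10 ± 0.58 in young and 4.44 ± 0.63 in old (SD, n = 3 each), a difference of 1.34 (exact permutation test, two-sided p = 0.10, the smallest p that 3 against 3 libraries can give). Leaving out single libraries kept the difference between 1.05 and 1.70. Since the log2 fold change of Utrn was -0.001, the difference in the ratio mirrors that of Dmd (-1.34) and is not a result apart from it. How often ratios of other gene pairs lie apart between the groups was not computed.

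**Figure D2:**
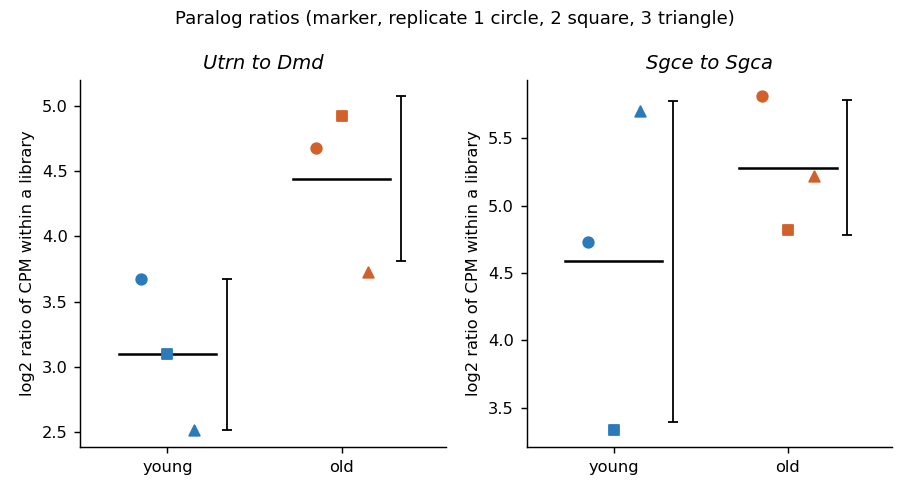
Log2 ratio of Utrn to Dmd (left) and of Sgce to Sgca (right) within each library, with lines for the means and bars for SD (n = 3). The ratio of Utrn to Dmd was higher in each old library than in each young library, whereas the ratios of Sgce to Sgca overlapped.

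Dag1 (ENSRNOG00000019400) encodes dystroglycan, which is cut into the α-subunit that binds laminin and the β-subunit that crosses the membrane and binds dystrophin. Its level was 1008, 1317 and 749.6 CPM in the young libraries and 655, 589 and 703 CPM in the old libraries. The old libraries were all lower than the young libraries and closer together, at 649 ± 56.9 CPM compared with 1025 ± 284 CPM in young (SD, n = 3 each). The coefficient of variation was 8.76% among the old and 27.7% among the young libraries. Old differed from young by -0.66 on the log2 scale (SE 0.22, edgeR adjusted p = 0.166). DESeq2 gave an adjusted p of 0.0406 for Dag1, the one member under 0.05 in that test, where 12.5% of the genes it tested were, but the fold change was below the threshold for a call. Leaving out single libraries put the log2 fold change of Dag1 between -0.84 and -0.44, and without young replicate 2, its highest library, it was -0.44. The unadjusted p, 0.0222 with all libraries, was 0.0673 without young replicate 2, 0.0517 without the first and 0.0698 without the second old replicate (edgeR).

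The sarcoglycans are single-pass membrane proteins that assemble as a group of 4, and mutations in several of them cause limb-girdle muscular dystrophies. The β- and δ-subunits form the core on which the others are placed. Sgcb (ENSRNOG00000002135), which encodes β-sarcoglycan, had 232, 172 and 128 CPM in the young libraries and 282, 349 and 237 CPM in the old libraries. The old libraries were all higher than the young libraries, although old replicate 3 was only slightly above young replicate 1. The means were 177 ± 52.4 CPM in young and 289 ± 56.3 CPM in old (SD, n = 3 each), with a log2 fold change of 0.70 (SE 0.25, edgeR adjusted p = 0.177, DESeq2 adjusted p = 0.0686). Leaving out single libraries put it between 0.52 and 0.95, and the unadjusted p of Sgcb, 0.0275 with all libraries, stayed under 0.05 only without young replicate 1 (0.00746) or old replicate 3 (0.0233). When libraries were scaled by their totals only, the number of members without overlap was 1 rather than 2. Sgcd (ENSRNOG00000002372), which encodes δ-sarcoglycan, had 12.3, 6.22 and 8.24 CPM in the young libraries and 19.7, 10.4 and 14.3 CPM in the old libraries. Young replicate 1 lay above old replicate 2, so the groups overlapped. The log2 fold change of Sgcd was 0.73 (SE 0.33, edgeR adjusted p = 0.240) and lay between 0.47 and 1.03 with a library left out, where the lower value was reached without old replicate 1.

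Sgca (ENSRNOG00000003998), which encodes the α-sarcoglycan of striated muscle, had the fewest counts of the members. Its raw counts were 84, 340 and 66 in young and 57, 103 and 95 in old cultures, or 1.86, 5.65 and 1.34 CPM and 1.15, 1.98 and 1.77 CPM. Young replicate 2 alone stood above the others, and the other 5 libraries lay between 1.15 and 1.98 CPM. It differed by -0.86 on the log2 scale with all libraries (SE 0.58, edgeR adjusted p = 0.402) and 0.03 without young replicate 2, so the difference rested on that library. Sgce (ENSRNOG00000046905), which encodes ε-sarcoglycan, varied little, with 49.4, 57.0 and 70.0 CPM in the young libraries and 64.3, 56.0 and 65.9 CPM in the old libraries. Old differed from young by 0.08 on the log2 scale (SE 0.15, edgeR adjusted p = 0.766), and the 95% interval from limma-voom ran from -0.26 to 0.44. The log2 ratio of Sgce to Sgca was 4.59 ± 1.19 in young and 5.28 ± 0.50 in old (SD, n = 3 each), a difference of 0.69 that was smaller than the spread of the young libraries (exact permutation test, two-sided p = 0.40).

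Sspn (ENSRNOG00000001807) encodes sarcospan, a small protein with several membrane spans that binds the sarcoglycans. It had 14.5, 11.3 and 19.8 CPM in the young libraries and 17.6, 18.7 and 39.6 CPM in the old libraries. Old replicate 3 was the highest, and the other 2 old libraries lay below young replicate 3. Sspn differed by 0.73 on the log2 scale (SE 0.37, edgeR adjusted p = 0.284) and 0.25 without old replicate 3. Sntb2 (ENSRNOG00000020344), which encodes β2-syntrophin, had 6.34, 7.90 and 8.20 CPM in the young libraries and 6.23, 7.70 and 10.6 CPM in the old libraries. The ranges overlapped, and the log2 fold change was 0.13 (SE 0.23, edgeR adjusted p = 0.758), with a 95% interval from limma-voom of -0.45 to 0.65.

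**Figure D3:**
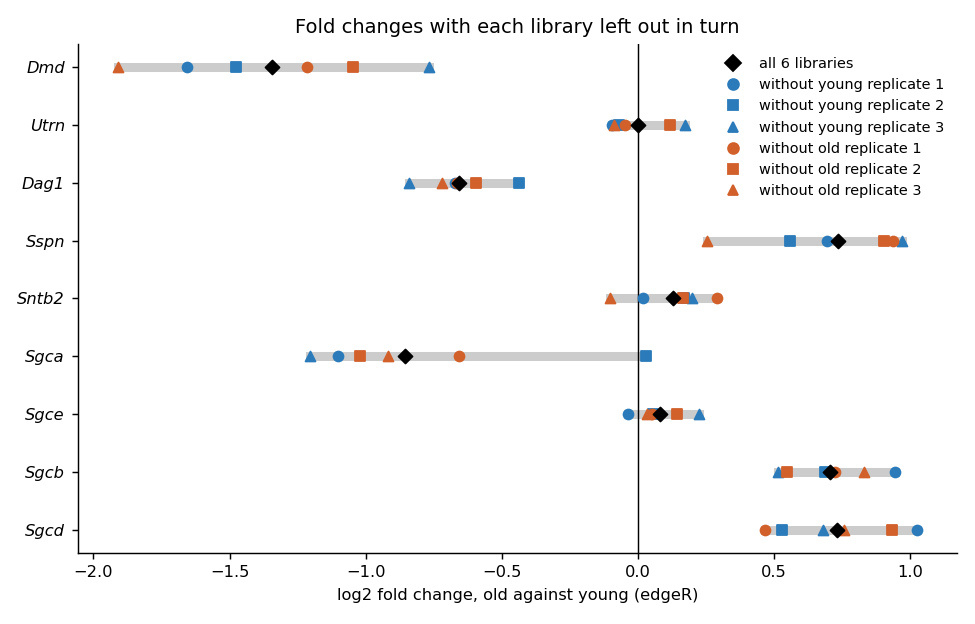
Log2 fold change of the 9 members, old against young, with all 6 libraries (black diamond) and with each library left out (colored markers; the grey bar spans the lowest to the highest). Sgca moves to 0.03 without young replicate 2, and Dmd reaches from -1.91 to -0.77.

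Of the other subunits of the complex, 4 that were not among the 9 members are described here. Sntb1, whose protein binds dystrophin as β2-syntrophin does, had 65.2, 47.6 and 28.1 CPM in the young libraries and 56.4, 35.7 and 35.99 CPM in the old libraries. The groups overlapped, with a log2 fold change of -0.14 (SE 0.33, edgeR adjusted p = 0.823). The dystrobrevin genes Dtna and Dtnb encode partners of dystrophin and syntrophin, and had log2 fold changes of 0.07 (edgeR adjusted p = 0.937) and -0.17 (edgeR adjusted p = 0.573). Drp2, a dystrophin-related gene best known from Schwann cells, had 0.03 (edgeR adjusted p = 0.966). Young and old libraries overlapped for each of these 4 genes.

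**Figure D4:**
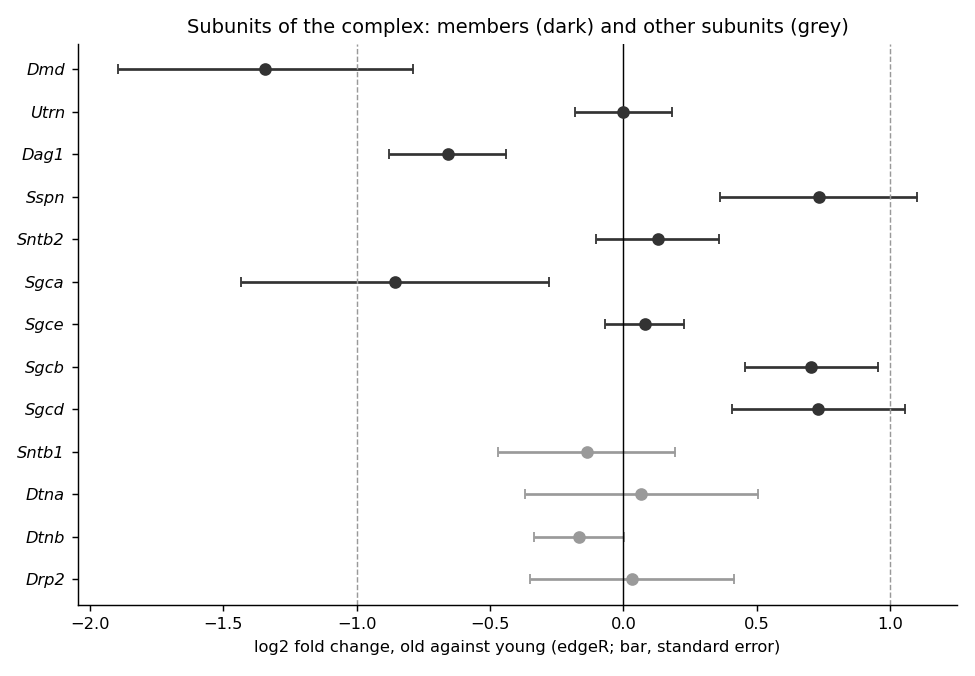
Log2 fold change, old against young, of the 9 members (dark) and of 4 other subunits of the complex (grey), with bars for the standard error from edgeR. Dashed lines mark an absolute log2 fold change of 1, which Dmd (-1.34) alone exceeds.

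Dystroglycan binds laminin only after sugars have been added by a chain of enzymes in the endoplasmic reticulum and Golgi. Of 18 such genes, 17 were measured, with 3 below and 1 above young at an unadjusted p under 0.05 in edgeR, where 11.5% and 11.2% of all genes were, so the count is near the background. The sum of these was 2 instead of 4 when any one of young replicates 1, 2 and 3 or old replicates 2 and 3 was left out. Pomgnt1, which extends the O-mannose that Pomt1 and Pomt2 start, had 94.1, 105 and 99.1 CPM in young and 76.0, 81.5 and 70.7 CPM in old. The 3 old libraries of Pomgnt1 lay below the 3 young libraries, with a log2 fold change of -0.39 (SE 0.09, edgeR adjusted p = 0.106, DESeq2 adjusted p = 0.00652). B4gat1, which primes the laminin-binding sugar chain, had a log2 fold change of -0.38 (edgeR adjusted p = 0.163) and Pomt1 of -0.21 (edgeR adjusted p = 0.214). Gmppb, which makes the mannose donor, was higher by 1.32 on the log2 scale (edgeR adjusted p = 0.169), but from a mean of only 0.146 CPM in young and 0.370 CPM in old. The median of the list was -0.05.

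Of the extracellular ligands, 11 were measured, with 1 gene above and 1 below young at an unadjusted p under 0.05, which is no more than the 11.2% and 11.5% of all genes would give. Lama2 encodes the laminin α2 chain, the main partner of dystroglycan in muscle. It had 53.3, 29.3 and 39.9 CPM in young and 100.3, 108 and 106 CPM in old, a log2 fold change of 1.36 (SE 0.21, edgeR adjusted p = 0.0574, DESeq2 adjusted p = 1.93e-06). Lama5 encodes the laminin α5 chain of vessel basement membranes. It had 16.1, 42.3 and 32.4 CPM in young and 3.62, 2.87 and 4.93 CPM in old, a log2 fold change of -2.99 (SE 0.40, edgeR adjusted p = 0.0531, DESeq2 adjusted p = 1.92e-11). For both chains the groups did not overlap, and DESeq2 called both. Lamb2 (0.34, edgeR adjusted p = 0.233) and Bgn (0.47, edgeR adjusted p = 0.279) had the next lowest p, and the median log2 fold change of the ligands was -0.08.

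Of the cytoskeletal and membrane partners, 15 were measured, with 5 genes below and 1 above young at an unadjusted p under 0.05 (11.5% and 11.2% of all genes), and the median log2 fold change was -0.13. Itga7, the α-chain of an integrin that binds laminin in muscle beside dystroglycan, had a log2 fold change of -2.37 (edgeR adjusted p = 0.0531, DESeq2 adjusted p = 7.83e-19), and Cav1, the coat protein of caveolae, of -1.12 (edgeR adjusted p = 0.128, DESeq2 adjusted p = 0.00908). DESeq2 called both. The ankyrin genes went opposite ways, with Ank3 at -0.68 (edgeR adjusted p = 0.137) and Ank2 at 0.67 (edgeR adjusted p = 0.162). The other partners that were lower were Dysf (-0.67) and Sync (-0.53). Nos1 and Cav3 were not in the table.

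**Figure D5:**
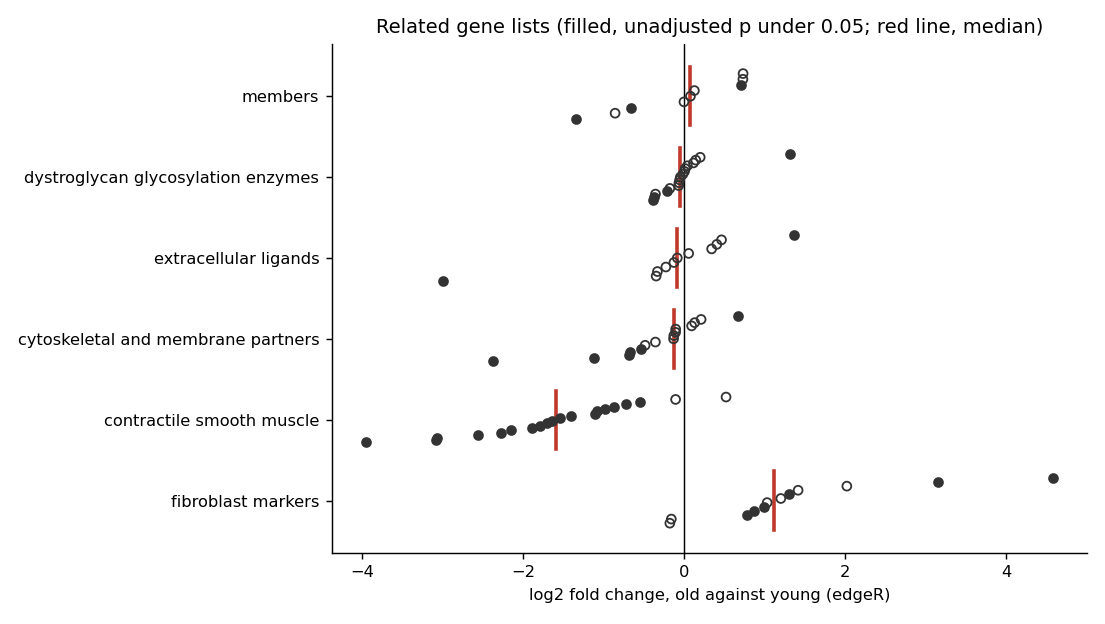
Log2 fold change, old against young, of each gene of the complex, of 3 related lists, of contractile genes and of fibroblast markers (filled points, unadjusted p under 0.05 in edgeR; red lines, medians). The members spread around a median of 0.08, the contractile genes around -1.59 and the fibroblast markers around 1.12.

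Dmd had a negative log2 fold change, as did 19 of the 20 contractile genes, whose median log2 fold change was -1.59. Of these 20, 18 were lower at an unadjusted p under 0.05 in edgeR, where 11.5% of all genes were. Acta2 and Myh11 had log2 fold changes of -2.27 and -3.08 (edgeR adjusted p = 0.0636 and 0.0648), and Myl9, Tpm2, Itga8 and Cnn1, which had the lowest p, lay between -2.56 and -1.70. Within the young group, Dmd was highest in replicate 3 and lowest in replicate 1, as were Acta2 and Myh11. Within the old group Dmd was highest in replicate 3, Acta2 in replicate 1 and Myh11 in replicate 2, where Dmd was lowest, so the order was not shared there. Over the 6 libraries, the genes with the pattern most like that of Dmd in log2 CPM were Usp25 (Pearson's r = 0.992), Itpr1 (r = 0.991) and Rcn2 (r = 0.990) among 11435 genes. Itpr1, a calcium release channel, had 174, 247 and 454 CPM in young and 110, 78.8 and 168 CPM in old, whereas Usp25 and Rcn2 followed the same order over a much smaller range, with log2 fold changes of -0.20 and -0.12. The genes most like Sspn were Tmem229b (r = 0.996), Samd9 (r = 0.995) and Zfp282 (r = 0.990). These correlations were picked as the highest of many over 6 libraries that share the age difference, and they are given as a description.

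Markers of other cell types were compared as well. The summed levels of young and old libraries lay apart for the fibroblast and skeletal muscle lists. They overlapped for the Schwann cell, endothelial and macrophage lists. The fibroblast list had 12 measured markers, with 6 above and 0 below young at an unadjusted p under 0.05 in edgeR. Over all genes, 11.2% were above and 11.5% below young at this p. The summed level of the markers was 27339 to 36722 CPM in young and 57761 to 78139 CPM in old, most of it from Col1a1 and Col3a1. Without old replicate 2, 2 instead of 6 markers had such a p. Clec3b, Col3a1, Dcn and Pdgfra had the lowest p of this list, and Dcn was at 19.9, 1.16 and 2.28 CPM in young and 26.0, 411 and 119 CPM in old. The markers of this list did not peak in one library. Dcn and Pdgfra were highest in old replicate 2, and Col1a1, Col3a1 and Clec3b in old replicate 3. Sgcb was highest in old replicate 2 and, among the old libraries, lowest in old replicate 3. Sspn was highest in old replicate 3 and Sgcd in old replicate 1. The part of fibroblast-like cells in the values of Sgcb, Sgcd and Sspn was not tested. Of 20 skeletal muscle markers 7 were in the table, with a summed level of 215 to 387 CPM in young and 143 to 159 CPM in old, and the myogenic genes Pax7, Myod1, Myf5 and Myog, as well as Ckm, were not in it. Of the 7 measured markers, Acta1 (log2 fold change -3.51) and Chrng (-0.10) carried most of the level. Acta1 had 72.1, 140 and 256 CPM in young and 17.5, 17.6 and 5.97 CPM in old. It was the 1 marker of the 7 whose groups did not overlap. The log2 fold change was negative for 5 of the 7 and positive for 2, Tnnt3 (0.92) and Neb (0.76). At an unadjusted p under 0.05 in edgeR, 1 marker was below and 1 above young, so the list did not move as a group. The part of skeletal muscle cells in the value of Sgca was not tested. Schwann cell markers (6 of 11 in the table, without Sox10) summed to 383 to 511 CPM in young and 452 to 934 CPM in old, most of it from Ncam1. Endothelial markers (7 of 12, without Cdh5) summed to 43.1 to 47.8 CPM in young and 33.3 to 44.9 CPM in old, and macrophage markers (2 of 11, without Ptprc) to at most 2.90 CPM in each library. Single markers can differ where the sums overlap. At an unadjusted p under 0.05 in edgeR, 2 endothelial markers were below and 0 above young. For the Schwann cell list 0 were below and 1 above. DESeq2 called 2 of the 7 endothelial markers, where it called 5.68% of the genes it tested.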

How the data were processed

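RNA of 6 cultures of VSM cells, 3 from young and 3 from old rats, was sequenced as stranded polyadenylated libraries. The authors deposited raw counts per gene, which are whole numbers without normalization. According to the Methods and the submitters' processing notes, reads were trimmed with Cutadapt 3.5 through Trim Galore 0.6.7, aligned to the assembly Rnor 6.0 with STAR 2.7.10b and counted with featureCounts of Subread 2.0.8. How strand, mates and multi-mapping reads were handled was not stated, and genes are named by Ensembl identifier although a RefSeq annotation is named. In the table each gene reached 10 counts in 3 libraries or more, and totals per library are given with the groups. Between 68.7% and 71.1% of the counts from 1 to 19 of a library were even. Whether both mates of a pair were counted was not tested beyond halving the counts.

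Groups followed the sample titles. All 14475 genes were fitted with edgeR 4.0.16 in R 4.3.3 (TMM, quasi-likelihood F test, Benjamini-Hochberg adjustment over all genes, young as reference, no covariates). The standard error is the absolute log2 fold change over the square root of F, and CPM are scaled by the TMM library size. DESeq2 1.42.0 (Wald test, independent filtering at 0.05, no adjusted p for 292 genes) and limma-voom 3.58.1 (95% intervals) were run on the same counts. Ratios within a library were compared with an exact permutation test (scipy 1.17.1). The fits were run on simulated counts with known changes to check the fitted fold changes, which does not show the error rates of the calls in these data. Genes with a like pattern were sought among genes above a mean of 1 CPM, on log2 CPM with a prior count of 2.

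The alternatives were filterByExpr, a filter of more than 1 CPM in at least 3 libraries, RLE factors, scaling by library size alone, both other tools, the likelihood ratio test of edgeR, a replicate block, halved counts and each library left out. All members were named, with other subunits, Acta2 and Myh11, up to 4 genes with the lowest p of each related list and, chosen after their values were seen, some genes named for their role or absence. The members and lists were chosen with earlier results of these data known. Some genes of the lists are not reported here. No column was left unused.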

Additional observations from a re-analysis of the deposited data

How the results depend on the processing

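None of the members was called under any alternative that was run. The number of members with an unadjusted p under 0.05, 3 in the edgeR quasi-likelihood test, ranged from 0 to 4 when single libraries were left out. It was 0 without young replicate 2 or old replicate 1 and 4 without young replicate 1. Of all 14475 genes, 3277 had such a p with all libraries. This number was 2135 without young replicate 2, 4686 without old replicate 1 and 2412 without young replicate 1. The number of members whose groups do not overlap was 2, was 1 with scaling by library size alone, and ranged from 2 to 4 when single libraries were left out. Groups lie apart more easily with a library fewer, and no share over all genes was computed for these settings, so the higher values do not show more separation. The log2 fold change of Utrn, near 0, changed sign to 0.016 with library size alone and 0.0026 with limma-voom, and ranged from -0.095 to 0.17 when single libraries were left out. The ranges were -1.20 to 0.031 for Sgca, -0.035 to 0.22 for Sgce and -0.10 to 0.29 for Sntb2, each crossing 0. The cause of these changes was not tested.

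Same-numbered young and old libraries did not all deviate together (r of 0.03, 0.26 and 0.26 across genes), so the numbers were not taken as pairs. With the replicate block, 4 members (Dmd, Sgcb, Sgcd and Sspn) had an unadjusted p under 0.05 in edgeR, where 3254 of all 14475 genes did. In that fit 0 members were called, and the log2 fold change of Utrn was 0.0036. Over all genes, the number of calls was 1 in the edgeR quasi-likelihood test, 65 with the filter above 1 CPM, 724 with the likelihood ratio test, 805 with DESeq2, 0 with limma-voom and 732 without old replicate 1. Sgca, with 57 to 340 counts, was at -0.84 with halved counts, compared with -0.86.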
